A study of Mus musculus with 12 samples.

Results

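The genes described here are those of the extracellular matrix, of the proteases that cut it and of the integrins that bind cells to it, in the aorta of mice on a normal or a high-fat diet. They were chosen by symbol alone, as every gene of the deposited tables named as a collagen, Mmp, Adam, Adamts, Timp, laminin, integrin, fibulin, fibrillin, elastin, Lox, Emilin, thrombospondin or cathepsin, with Itga2b left out. The rule matched 42 symbols and left 41 genes of the 3532 used. Aortic RNA was measured by mRNA-seq in 4 groups, given here by the labels' names. WT was of the genotype WT on a normal diet for 12 weeks (n = 3). HFD was WT on the high-fat diet with 60% of its energy as fat for 12 weeks. HAPN carried the same labels for genotype and diet as HFD (n = 3), so how it was treated is not stated in the sources used here. HSAPN was labelled APPL1 knockdown (APPL1 is an adaptor protein of adiponectin receptor signalling) on the high-fat diet (n = 3), with no agent, promoter or target cell named. The files of HFD replicates 1 and 2 held identical values and were counted as 1 library, called HFD replicate 1 from here on, so HFD had 2 distinct libraries and the study 11. The labels do not say whether libraries of a group came from separate animals, and p-values measure only the spread between these libraries.

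The wall of the aorta owes its elastic recoil to elastic fibres, which smooth muscle cells assemble with the help of fibulins, and its strength to collagens. Matrix metalloproteases and cathepsins degrade both, tissue inhibitors of metalloproteases hold the former in check, and integrins are the paired receptors through which cells grip the matrix. Transcription of several metalloprotease genes is known to respond to AP-1, a Fos and Jun dimer that binds a short motif near the start site.

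Mmp3 and Mmp12 lie 76.3 kb apart on chromosome 9 (GRCm38). Of the 27 genes of the set with a promoter window, only these 2 had the AP-1 motif TGANTCA in it. The motif is its own reverse complement, so 1 search covered both strands, and a match is a description of the letters only. RefSeq promoter windows on GRCm38.p6, from 250 bases before to 50 after the start site, were found for 27 of the 41 genes. The motif stood in the windows of 2 of these 27 genes, against 8.97% of the 27025 genes with a window. It was thus no more common in the set than over all genes, and whether AP-1 acts on either gene was not tested. The 250 bases before the start site of each are shown because both genes were higher in HFD than in WT without overlap. Both are on the plus strand, 5′ to 3′, with the motif in capitals. The motif begins 44 bases before the start site in Mmp12, in 1 of its 2 windows, and 46 bases before it in Mmp3.
Mmp12, chr9:7347124-7347373: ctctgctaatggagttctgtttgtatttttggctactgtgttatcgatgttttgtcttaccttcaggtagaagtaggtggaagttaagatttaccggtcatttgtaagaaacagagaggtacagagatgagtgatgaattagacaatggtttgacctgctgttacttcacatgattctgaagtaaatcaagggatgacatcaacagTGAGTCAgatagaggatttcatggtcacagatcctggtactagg
Mmp3, chr9:7445572-7445821: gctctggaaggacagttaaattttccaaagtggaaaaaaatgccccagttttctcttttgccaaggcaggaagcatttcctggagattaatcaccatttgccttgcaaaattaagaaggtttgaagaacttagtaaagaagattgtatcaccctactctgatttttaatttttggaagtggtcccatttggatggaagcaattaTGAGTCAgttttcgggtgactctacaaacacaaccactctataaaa

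Levels are given as FPKM (fragments mapped to a gene, scaled by its exonic length and the library's reads), which allows genes to be compared per length. Whole reads recovered from the low values placed the libraries at 15610000 to 17840000 reads each. The table itself held 12.0% to 17.6% of them, and no Appl1 value was analysed here, so the knockdown label could not be checked on its own gene. Of the aorta's defining markers, 11 of 14 smooth muscle genes were in the table, with a summed level of 376 to 4050 FPKM. None of 8 endothelial markers was in it. Markers of tissues around the aorta differed widely between the libraries within each group. In HFD the sum of 9 adipocyte markers was 23.0 and 1343 FPKM. That of 2 heart muscle markers (Tnnt2 and Tnni3) was 7.16 and 243 FPKM, and the airway gene Bpifa1 was at 5.84 and 6438 FPKM. In WT, HAPN and HSAPN the adipocyte sum was 107 to 892, 23.0 to 270 and 34.1 to 103 FPKM. The heart muscle sum in these groups was 43.3 to 215, 7.02 to 86.6 and 10.8 to 105 FPKM. Bpifa1 was at 238 to 10735, 2.81 to 3848 and 27.9 to 1149 FPKM. In such bulk samples, fewer cells of a type and less RNA per cell cannot be told apart.

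The 41 genes fell into 11 roles and spanned levels from a few reads to 36.9 FPKM. The mean over all libraries was at least 10 FPKM for 6 genes, namely Ctsk, Itgb5, Mmp3, Adamts1, Fbln1 and Fbln5. Another 13 had a mean from 1 to 10 FPKM and 22 had a mean under 1 FPKM. Only genes reaching 1 FPKM in 3 or more libraries were tested, which kept 21 of the 41 (1659 of all genes). The other 20 comprised 4 Adam genes, 4 Adamts genes, 3 Mmp genes, both thrombospondins, 5 collagens, Fbln7 and Itgb8. Elastin, the fibrillins, collagens I, III and IV, the laminins, Lox genes and, apart from Itga2b among the platelet markers, integrin alpha subunits were not analysed here.

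**Figure D1:**
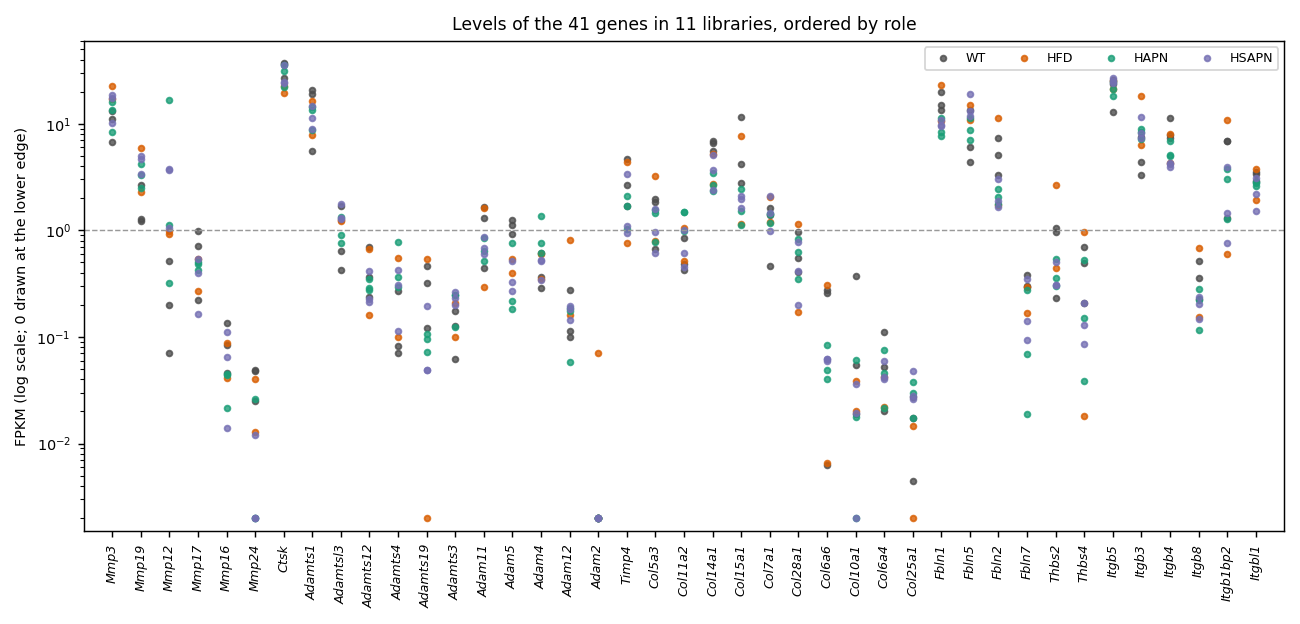
FPKM (log axis) of each of the 41 genes in the 11 libraries, 1 point per library coloured by group and genes ordered by role, with the dashed line at 1 FPKM and libraries at 0 drawn at the lower edge. Ctsk and Itgb5 lie highest, while 22 genes have a mean under 1 FPKM.

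Differences were tested with limma on log2(FPKM + 1) in 1 fit of the 4 groups, with p-values adjusted over all 1659 genes. On this scale the difference of a low gene is understated. No gene of the set passed an adjusted p of 0.05 in any of 5 comparisons, in 105 tests, and limma-voom on the recovered reads called none either. Before adjustment, 10 of the 105 p-values were under 0.05. The lowest adjusted p was 0.133, for Col14a1. Calls were rare over all genes as well, with 0% called in HFD against WT, 0.181% in HAPN against HFD, 0.121% in HSAPN against HAPN, 0% in HSAPN against HFD and 0.0603% in the high-fat groups against WT. The values below are therefore differences in level, and none is a called change. The comparisons share libraries: WT enters 2 of them and HFD 4.

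**Figure D2:**
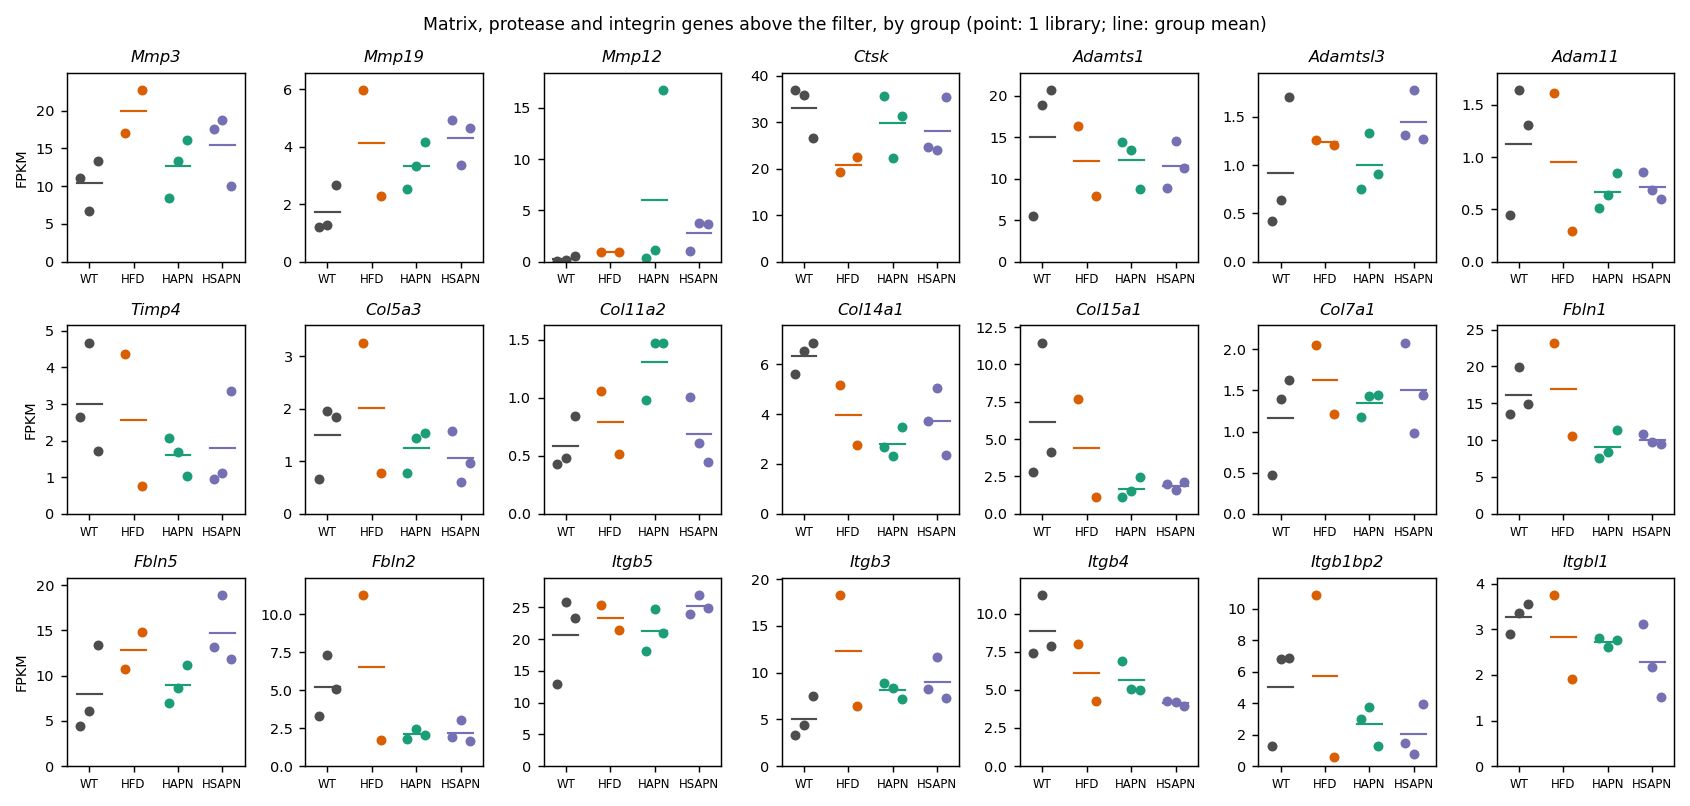
FPKM of the 21 tested genes by group, each panel 1 gene on its own axis from 0, each point 1 library and each line a group mean. Mmp3 and Mmp12 are higher in both HFD libraries than in every WT library, and Mmp12 has a single library at 16.7 FPKM in HAPN.

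The 3 tested Mmp genes had the highest median log2 difference from WT of the tested roles, 0.85 in HFD and also in the high-fat groups together. Mmp3 (stromelysin-1, which cuts proteoglycans and fibronectin and activates other metalloproteases; chromosome 9, 7445822 to 7455975) was at 11.1, 6.71 and 13.3 FPKM in WT and at 17.1 and 22.7 FPKM in HFD. It was at 8.42, 13.4 and 16.1 FPKM in HAPN and at 17.6, 18.8 and 10.1 FPKM in HSAPN. Both HFD libraries lay above all WT and all HAPN libraries, while HSAPN spanned from WT levels to HFD levels. The fitted difference of HFD from WT was 0.91 (SE 0.37, adjusted p = 0.369), on means of 19.9 ± 3.96 (SD, n = 2) and 10.4 ± 3.36 FPKM (SD, n = 3). HAPN was lower than HFD by 0.64 (log2 difference -0.64, SE 0.37, adjusted p = 0.542).

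Mmp12 (macrophage elastase, which degrades elastin; chromosome 9, 7344381 to 7369499) had the widest range of the tested genes, 235-fold from its lowest to its highest library. Its level was 0.0711, 0.201 and 0.520 FPKM in WT and 0.930 and 0.989 FPKM in HFD. In HAPN it was 0.324, 1.12 and 16.7 FPKM, and in HSAPN 1.04, 3.73 and 3.66 FPKM. The highest value, in HAPN replicate 3, rested on 1886 reads, against 9 reads in WT replicate 1. HFD and WT did not overlap, and neither did HSAPN and HFD, whereas HAPN overlapped with each of the other groups. The HFD mean was 3.63 times that of WT, and the log2 difference was 0.65 (SE 0.90, adjusted p = 0.828). HSAPN differed from HFD by 0.86 (SE 0.90, adjusted p = 0.886), with means of 2.81 ± 1.53 (SD, n = 3) and 0.959 ± 0.0418 FPKM (SD, n = 2). HAPN replicate 3 also had the highest sum of the 2 T and NK cell markers in the table (Nkg7 and Gzmb), 73.4 FPKM against 1.82 to 25.7 FPKM elsewhere. Its 3 macrophage markers in the table summed to 59.7 FPKM, below the 82.9 FPKM of HFD replicate 1. The part of these cells in the Mmp12 values was not tested.

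Mmp19, a metalloprotease that degrades basement membrane proteins (chromosome 10, 128790910 to 128800824), was at 1.21, 1.27 and 2.68 FPKM in WT and at 5.96 and 2.28 FPKM in HFD. It was at 2.51, 3.32 and 4.15 FPKM in HAPN and at 4.94, 3.36 and 4.65 FPKM in HSAPN. WT replicate 3 lay within the high-fat libraries, and the other WT libraries lay under all of them. The 8 high-fat libraries had a mean of 3.90 ± 1.26 FPKM (SD), against 1.72 ± 0.832 in WT, a log2 difference of 0.85 (SE 0.27, adjusted p = 0.139). Of the exonic bases of Mmp19, 28.3% are shared with genes on the other strand (Gm47093 and Tmem198b). The kit keeps strand, but whether the counting used it is not stated. Without WT replicate 3 the adjusted p of Mmp19 was 0.0396 (log2 difference 1.09). That fit called 240 of 1617 genes, where the full one called 1. All 3 tested Mmp genes had a positive log2 difference in HFD and in the high-fat groups against WT under every alternative in which they were tested. For Mmp3 and Mmp12 in HFD against WT the sign could hardly turn, since these groups did not overlap. The untested Mmp16, Mmp17 and Mmp24 were at most 0.989 FPKM in any library.

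Cathepsin K, the cysteine protease that cuts collagen and elastin, was the most abundant gene of the set and the least variable of the tested ones, with a highest to lowest ratio of 1.92. Ctsk was at 36.9, 35.9 and 26.7 FPKM in WT and at 19.2 and 22.6 FPKM in HFD. It was at 35.6, 22.3 and 31.4 FPKM in HAPN and at 24.8, 23.9 and 35.5 FPKM in HSAPN. Both HFD libraries were under every WT and every HSAPN library, while HAPN overlapped with each of the other groups. The log2 difference of HFD from WT was -0.63 (SE 0.26, adjusted p = 0.388), on means of 20.9 ± 2.39 (SD, n = 2) and 33.2 ± 5.61 FPKM (SD, n = 3). HSAPN was higher than HFD by 0.39 (SE 0.26, adjusted p = 0.886). Over all high-fat libraries the difference from WT was -0.35, and the groups overlapped.

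Adamts1 (an aggrecan and versican protease) was, after Ctsk and Mmp3, the next protease gene above 10 FPKM. WT replicate 1 held 5.54 FPKM and the other WT libraries 18.9 and 20.7 FPKM, a range that held all 8 high-fat libraries (7.89 to 16.4 FPKM). Adamtsl3, a protein of the family without the protease domain, was at 1.26 and 1.21 FPKM in HFD and at 1.31, 1.77 and 1.27 FPKM in HSAPN. These groups did not overlap, by a margin of under 0.1 FPKM, and the log2 difference was 0.13 (SE 0.27, adjusted p = 0.934). Adam11, a family member without protease activity, was highest in WT replicate 2 (1.64 FPKM) and lowest in HFD replicate 3 (0.297 FPKM). The inhibitor Timp4 was at 2.65, 4.68 and 1.71 FPKM in WT. It was at 4.37 and 0.765 FPKM in HFD, a 5.72-fold gap between the libraries of 1 group. Its high-fat mean was 1.92 ± 1.30 FPKM (SD, n = 8) against 3.01 ± 1.52 in WT (SD, n = 3), with overlap. No other Timp gene was analysed here.

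Among the collagens, Col14a1 stood apart in all high-fat libraries. It encodes a fibril-associated collagen that sits on the surface of collagen I fibrils (chromosome 15, 55307750 to 55520803). It was at 5.59, 6.53 and 6.87 FPKM in WT, at 5.18 and 2.74 FPKM in HFD, at 2.66, 2.31 and 3.47 FPKM in HAPN and at 3.71, 5.04 and 2.37 FPKM in HSAPN. Every high-fat library was under every WT library, the closest pair being HFD replicate 1 at 5.18 and WT replicate 1 at 5.59 FPKM. The mean of the high-fat libraries was 3.44 ± 1.14 FPKM (SD, n = 8), against 6.33 ± 0.663 in WT (SD, n = 3). The log2 difference was -0.74 (SE 0.22, adjusted p = 0.133), and for HFD alone against WT it was -0.60 (SE 0.30, adjusted p = 0.470), with -0.97 and -0.24 without HFD replicates 1 and 3 respectively. The sum of 5 fibroblast markers (Dcn, Lum, Dpt, Pi16 and Mfap5) was 154 to 173 FPKM in WT, 223 FPKM in HFD replicate 1 and 108 to 132 FPKM in the other high-fat libraries. The smooth muscle sum was 1035 to 4050 FPKM in WT, 1243 FPKM in HFD replicate 1 and 376 to 795 FPKM in the other high-fat libraries. Not every marker followed its sum. Dcn was at 61.9 to 64.1 FPKM in WT and 22.5 to 38.4 FPKM in the high-fat libraries other than HFD replicate 1. Dpt overlapped, at 53.8 to 76.4 FPKM in WT and 55.5 to 94.2 FPKM in the high-fat libraries. The smooth muscle markers Cald1 (10.8 to 14.2 and 8.87 to 15.4 FPKM) and Mylk overlapped too, while Myl9 followed the sum. Fbln1, Fbln2, Col15a1 and Itgb4 were also under every WT library in all high-fat libraries but HFD replicate 1. The part of either cell type in the values of Col14a1 and these genes was not tested. Col14a1 was the only 1 of the 21 genes, or 4.76%, whose high-fat libraries were all apart from WT. Of all tested genes, 4.04% were apart, and 2.29% were apart on the lower side.

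Col15a1, a collagen next to basement membranes, was at 2.81, 11.5 and 4.15 FPKM in WT and at 7.69 and 1.15 FPKM in HFD. All HAPN and HSAPN libraries were at 1.12 to 2.46 FPKM, under every WT library. Its log2 difference over the high-fat groups was -0.96 (SE 0.45, adjusted p = 0.225), HFD replicate 1 lying within WT. It was -0.47 without WT replicate 2 and -0.63 without HFD replicate 3. Col5a3, a minor chain of fibrillar collagen V, ranged from 0.671 to 1.96 FPKM in WT and was at 3.26 and 0.786 FPKM in HFD. Col11a2, a chain of the fibrillar collagen XI of cartilage, was at 0.984, 1.47 and 1.47 FPKM in HAPN and at 1.0, 0.609 and 0.450 FPKM in HSAPN, a log2 difference of -0.46 (SE 0.20, adjusted p = 0.636). The cartilage markers Acan and Comp summed to at most 0.602 FPKM in any library. Col7a1, the anchoring fibril collagen, stayed between 0.467 and 2.08 FPKM over all groups.

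The tested fibulins, glycoproteins that bridge elastin, basement membranes and cells, did not share 1 pattern. Fbln5, which is needed to form elastic fibres (chromosome 12, 101746565 to 101819055), was at 4.41, 6.11 and 13.4 FPKM in WT and at 10.7 and 14.9 FPKM in HFD. It was at 6.97, 8.65 and 11.2 FPKM in HAPN and at 13.2, 19.0 and 11.9 FPKM in HSAPN. Every HSAPN library lay above every HAPN library, with means of 14.7 ± 3.76 and 8.94 ± 2.13 FPKM (SD, n = 3 each). The log2 difference was 0.65 (SE 0.35, adjusted p = 0.815). WT overlapped with all 3 high-fat groups through its replicate 3. Without that library, Fbln5 was 1.04 higher in the high-fat groups on the log2 scale (adjusted p = 0.0308), in the fit with 240 calls, against 0.63 (SE 0.30, adjusted p = 0.225) with it.

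Fbln1, a fibulin of basement membranes and elastic fibres, was at 13.5, 19.9 and 14.9 FPKM in WT and at 23.2 and 10.6 FPKM in HFD. HAPN was at 7.59, 8.35 and 11.4 FPKM and HSAPN at 10.8, 9.79 and 9.42 FPKM, all under every WT library. The log2 difference of HAPN from HFD was -0.75 (SE 0.31, adjusted p = 0.542), and 1 HAPN library was above 1 HFD library. It was -0.21 without HFD replicate 1 and -1.28 without replicate 3. Fbln2, a fibulin that binds fibronectin and laminins, was at 11.3 FPKM in HFD replicate 1 and 1.75 FPKM in replicate 3. WT was at 3.28, 7.31 and 5.11 FPKM, while HAPN and HSAPN together lay between 1.65 and 3.06 FPKM. The log2 difference of HAPN from HFD was -0.92 (SE 0.54, adjusted p = 0.542), and 0.16 without HFD replicate 1. Here the adipocyte sum was 1343 FPKM in the first of these HFD libraries and 23.0 FPKM in the second, and its part in the fibulin values was not tested.

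Of the integrin beta chains, Itgb5, a partner of the alpha V chain in vitronectin receptors, was the most abundant. Its 11 libraries lay between 12.9 FPKM in WT replicate 1 and 27 FPKM in HSAPN replicate 2, and its group means of 20.7 to 25.3 FPKM were within the spread of WT. Itgb3, the beta chain of the vitronectin receptor and of the platelet fibrinogen receptor, was at 3.29, 4.37 and 7.54 FPKM in WT and at 18.3 and 6.38 FPKM in HFD. It was at 8.86, 8.35 and 7.15 FPKM in HAPN and at 8.23, 11.6 and 7.28 FPKM in HSAPN. All but 3 high-fat libraries were above every WT library. The log2 difference of HFD from WT was 1.04 (SE 0.41, adjusted p = 0.369), and 0.34 without HFD replicate 1. That of the high-fat groups from WT was 0.82 (SE 0.31, adjusted p = 0.170). The 7 platelet markers other than Itgb3, the alpha chain Itga2b among them, summed to 87.7 to 135 FPKM in WT and to 148 to 514 FPKM in the high-fat libraries. Each of Gng11, Clec1b, Gp9, Gp1bb and Itga2b was higher in every high-fat library than in every WT library. Pf4 (26.1 to 34.2 FPKM in WT and 30.1 to 116 FPKM in the high-fat libraries) and Ppbp (17.8 to 26.2 and 22.5 to 205 FPKM) overlapped. The highest platelet sum was in the library with the highest Itgb3. In HFD replicate 3, however, the sum was 219 FPKM, above every WT library, while Itgb3 was the lowest of the high-fat libraries. The part of platelets in the Itgb3 values was not tested.

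Itgb4, the beta chain of the laminin receptor of hemidesmosomes (chromosome 11, 115974709 to 116008412), had lower means in each high-fat group. It was at 7.40, 11.2 and 7.86 FPKM in WT, at 7.99 and 4.26 FPKM in HFD, at 6.92, 5.03 and 4.97 FPKM in HAPN and at 4.27, 4.18 and 3.93 FPKM in HSAPN. All high-fat libraries but HFD replicate 1 were under every WT library, and HSAPN was under HAPN throughout. The log2 difference of the high-fat groups from WT was -0.66 (SE 0.20, adjusted p = 0.134). HSAPN was lower than HAPN by 0.36 (log2 difference -0.36, SE 0.24, adjusted p = 0.900), with means of 4.13 ± 0.174 and 5.64 ± 1.11 FPKM (SD, n = 3 each). The antisense gene B230344G16Rik covers 7.66% of the exonic bases of Itgb4.

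The symbol rule also took in 2 genes that encode no integrin subunit. Itgb1bp2 (melusin), a protein of striated muscle that binds the integrin beta-1 tail, was at 1.30, 6.84 and 6.90 FPKM in WT and at 10.9 and 0.602 FPKM in HFD. It was at 3.02, 3.78 and 1.28 FPKM in HAPN and at 1.45, 0.760 and 3.95 FPKM in HSAPN. The heart muscle sum was 243 FPKM in the HFD library at 10.9 FPKM and 7.16 FPKM in the other, and the 4 libraries with the lowest sums were also among the 5 with the lowest Itgb1bp2. The part of heart muscle in the Itgb1bp2 values was not tested. Itgbl1, a secreted protein with integrin-like repeats, stayed between 1.52 and 3.76 FPKM.

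Counted over the 21 tested genes, 4 genes (19.0%) did not overlap between HFD and WT, against 19.3% of all tested genes. These were Mmp3 and Mmp12, which were higher (12.1% of all genes were apart and higher), and Ctsk and Col14a1, which were lower (7.17% of all genes). Between HAPN and HFD, Mmp3 alone did not overlap and was lower in HAPN, against 26.3% of all genes (19.8% lower and 6.51% higher). Between HSAPN and HAPN, 2 genes did not overlap, against 17.5% of all genes, namely Fbln5 on the higher side (9.95% of all genes) and Itgb4 on the lower (7.53%). Between HSAPN and HFD, 3 genes (Ctsk, Mmp12 and Adamtsl3) did not overlap, against 19.8% of all genes. These 3 (14.3%) were all higher in HSAPN, where 5.61% of all genes were apart and higher. Itgb3, Mmp3, Ctsk and Mmp19 had an unadjusted p under 0.05 in HFD against WT, a share of 19.0% where 11.4% of all genes had one. Of the set, only Fbln1 had an unadjusted p under 0.05 in HAPN against HFD (8.62% of all genes did), only Col11a2 in HSAPN against HAPN (7.84%) and none in HSAPN against HFD (4.04%). In the high-fat groups against WT the genes with such a p were Col14a1, Itgb4, Mmp19 and Itgb3, again 19.0%, against 23.6% of all genes. In a set of this size, 1 gene makes 4.76%.

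**Figure D3:**
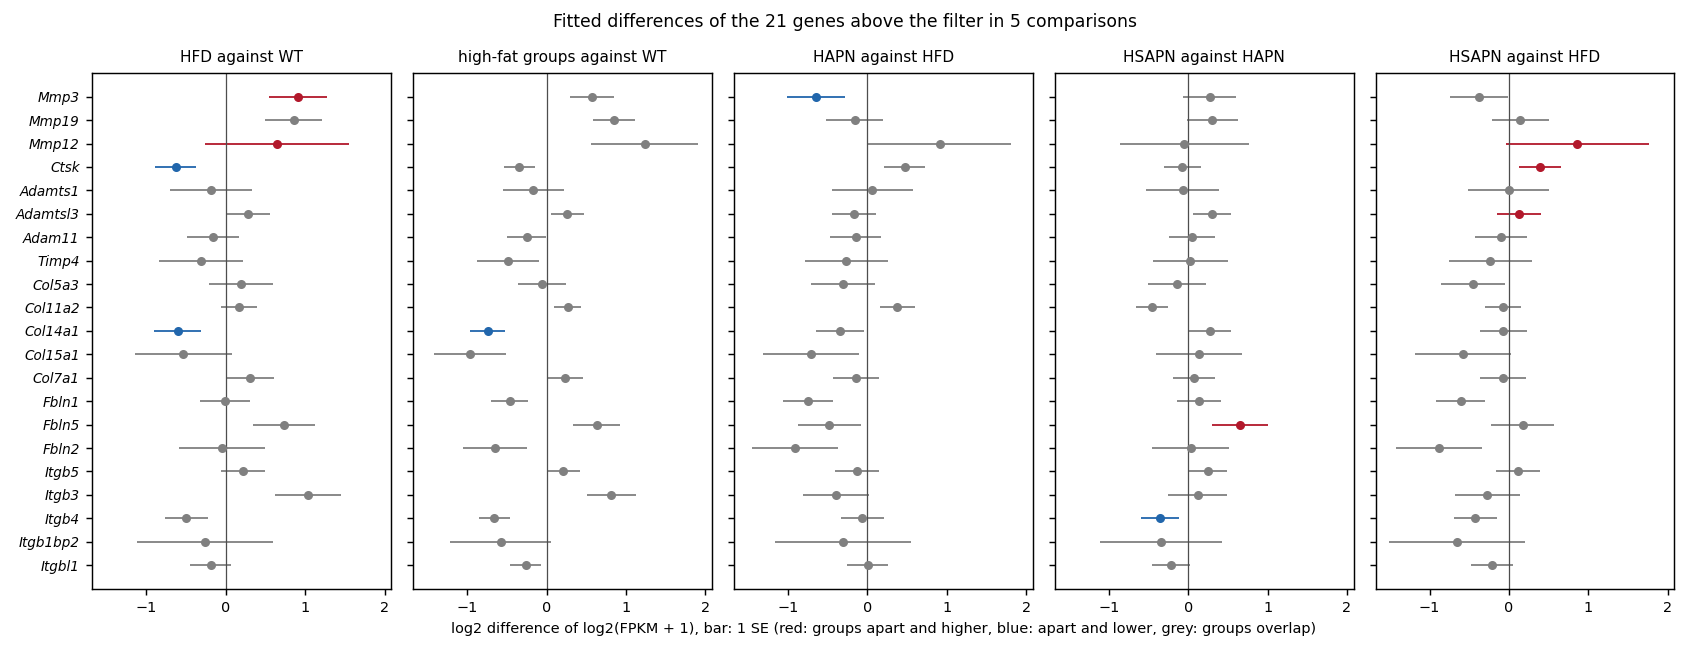
Fitted log2 differences of log2(FPKM + 1) for the 21 tested genes in 5 comparisons, with bars of 1 SE, coloured where the groups do not overlap. The 3 Mmp genes lie right of 0 in both comparisons with WT, and no difference passed an adjusted p of 0.05.

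The balance of the set against WT rested on single libraries. In HFD against WT 10 genes were higher and 11 lower, with a median log2 difference of -0.01, against 0.07 over all tested genes. Without HFD replicate 3 the split was 18 higher and 3 lower (median 0.49), and without HFD replicate 1 it was 8 and 12 (median -0.48). Without WT replicate 2 it was 14 and 6, and without WT replicate 3 it was 12 and 8. Over all tested genes, 57.6% were higher in HFD than in WT with all libraries. That share was 69.8% and 42.0% without HFD replicates 3 and 1, and 65.0% and 59.5% without WT replicates 2 and 3. In the high-fat groups against WT 9 were higher and 12 lower, with a median of -0.17 against -0.06. The split was 11 higher and 9 lower without WT replicate 2 and also without WT replicate 3. Of all tested genes, 44.6% were higher with all libraries, and 50.1% and 49.8% without WT replicates 2 and 3. HAPN had 5 genes higher and 16 lower than HFD, with a median of -0.17, where the median of all genes was -0.24. HSAPN had 6 higher and 15 lower than HFD, with medians of -0.11 and -0.18. HSAPN had 13 genes higher and 8 lower than HAPN, with a median of 0.04 against 0.03. The lean of HAPN and HSAPN below HFD went with the scaling. With median-ratio size factors the splits were 9 higher and 12 lower for HAPN, and 11 higher and 10 lower for HSAPN. Over all genes the share higher in HAPN than in HFD was then 44.2% in place of 24.9%, and in HSAPN than in HFD 46.9% in place of 27.1%.

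That lean also turned on a single HFD library. HFD replicate 1 was above replicate 3 in 17 of the 21 tested genes (81.0%), and in 73.1% of all tested genes. It held the highest value of 7 of the 21 genes (33.3%), and of 32.9% of all tested genes. Itgb1bp2 was 18.1 times as high in it as in replicate 3, Col15a1 6.71 times and Fbln2 6.47 times. Without HFD replicate 1, HAPN was higher than HFD in 15 of the 20 genes still tested and lower in 5, with a median of 0.31. HSAPN was higher in 16 and lower in 4, with a median of 0.21. Of all tested genes, 50.6% were then higher in HAPN (median 0.007) and 54.9% in HSAPN (median 0.05). Without replicate 3 HAPN was lower in 18 of 21 genes and HSAPN in 17. Of all tested genes, 23.0% were then higher in HAPN and 24.2% in HSAPN. WT replicate 1 was the lowest library for 9 of the 21 genes (42.9%), against 28.9% of all tested genes. The summed level of the 21 genes was 117 FPKM in WT replicate 1 and 198 FPKM in HFD replicate 1, with all others between them.

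**Figure D4:**
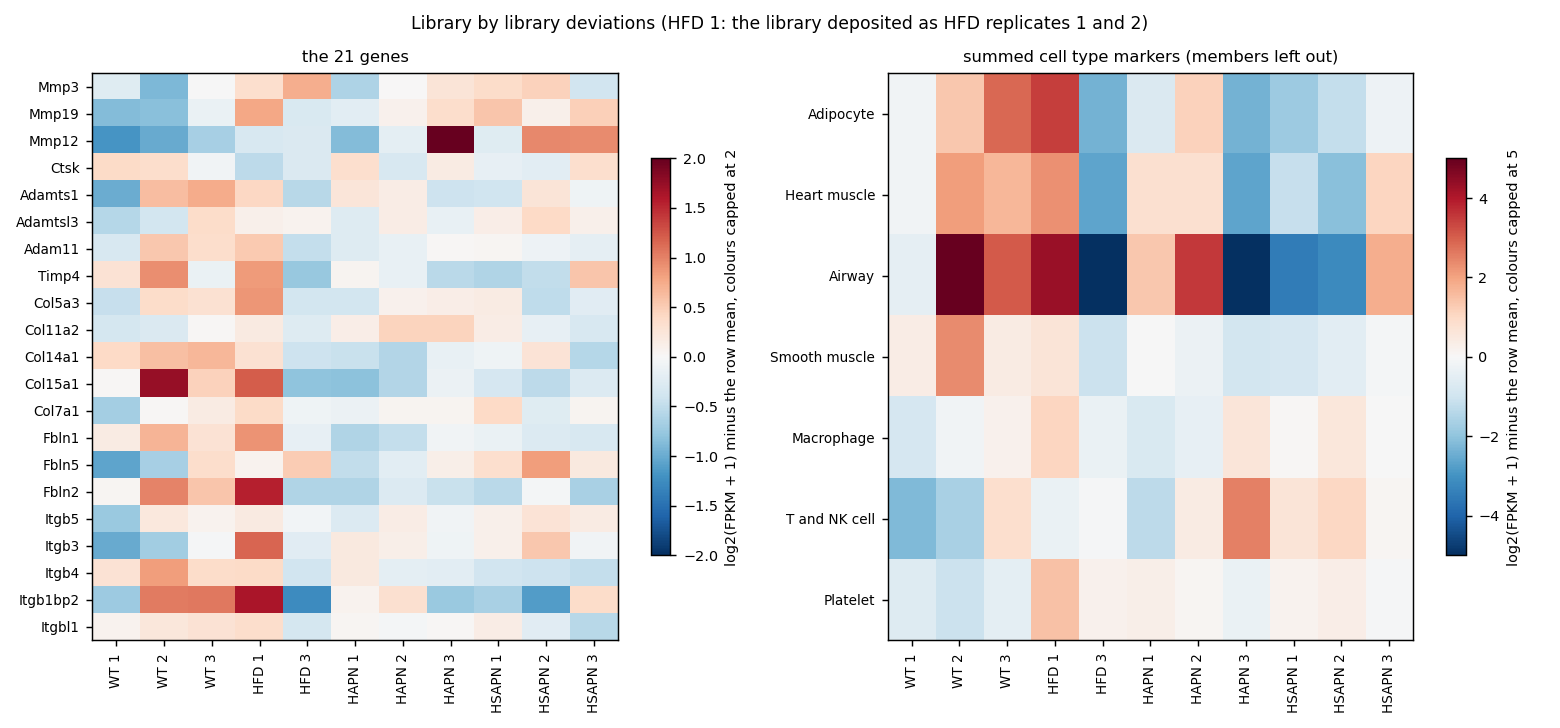
Left, deviation of log2(FPKM + 1) from the row mean for the 21 tested genes in the 11 libraries, with colours capped at 2. Right, the same for summed cell type markers, capped at 5. HFD replicate 1 is high for Fbln2, Itgb1bp2 and the adipocyte and heart muscle sums, and HFD replicate 3 is low for Itgb1bp2 and for both sums.

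The 20 genes under the filter were at most 2.66 FPKM in any library, the value of Thbs2 (thrombospondin-2, a matrix regulator of collagen assembly) in HFD replicate 1. Thbs2 was at 0.447 FPKM in the other HFD library and between 0.232 and 1.04 FPKM in every other library. Thbs4, a thrombospondin of tendon and muscle, was at 51 reads in that library and at 1 read in HFD replicate 3. Adamts12, a protease of cartilage matrix proteins, ranged from 0.160 to 0.695 FPKM. Adam2, a sperm surface protein, had 3 reads in 1 library and none in the other 10. A fit without the filter over 3506 genes called none of the 20 in any comparison. In it Adam5, another gene known from sperm, was apart and lower in all high-fat libraries, with 51, 63 and 67 reads in WT and 9 to 39 reads in the others (log2 difference -0.59, SE 0.15, adjusted p = 0.133). Adam4 was higher in HAPN, at 25, 61 and 30 reads, than in HSAPN, at 23, 15 and 22 reads, with an adjusted p of 0.669. Adam5 and Adam4 were at most 1.37 FPKM. Other genes under the filter were apart too. Adam4 and Col25a1 were higher in HAPN than in HFD. Between HSAPN and HFD, Col25a1 was higher and Mmp24 lower in HSAPN. Col25a1 had at most 11 reads and Mmp24 at most 4 in any library. The share of all genes apart in that fit is not given here.

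The neighbouring parts of the matrix system were read from 4 lists. Of 58 other matrix proteins 22 were tested, with 9 higher and 13 lower in HFD than in WT and 3 higher and 19 lower in HAPN than in HFD. The latter split became 7 and 15 with median-ratio scaling, and 12 and 10 without HFD replicate 1. None was called in any comparison with all libraries. Of all tested genes, 57.6% were higher in HFD than in WT and 24.9% were higher in HAPN than in HFD. The latter share was 44.2% with median-ratio scaling and 50.6% without HFD replicate 1. Opticin (Optc), a small leucine-rich proteoglycan, was at 2.80, 8.41 and 1.53 FPKM in WT and at most 1.29 FPKM in the high-fat libraries, a log2 difference of -1.49 (adjusted p = 0.130). Cyr61, a matricellular ligand of integrins, was at 31.4, 23.2 and 33.3 FPKM in HAPN, under all other libraries, and at 57.4, 52.2 and 34.7 FPKM in HSAPN (log2 difference 0.68, adjusted p = 0.637). Mfap5, a protein of elastin-associated microfibrils, was likewise lower in HAPN than in HFD (-0.65, adjusted p = 0.505) and higher in HSAPN than in HAPN (0.50, adjusted p = 0.581).

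Of 28 other proteases and inhibitors 9 were tested, with 7 higher and 2 lower in HFD than in WT, and all 9 lower in HAPN and in HSAPN than in HFD (all but 1 in the latter with median-ratio scaling). Without HFD replicate 1, 7 were tested, of which 4 were lower in HAPN and 3 in HSAPN. None was called with all libraries. Over all tested genes, 57.6% were higher in HFD than in WT. The shares higher in HAPN and in HSAPN than in HFD were 24.9% and 27.1%, and 50.6% and 54.9% without HFD replicate 1. Ctla2a, a cathepsin-like inhibitor of cysteine proteases, was at 9.08, 7.16 and 15.8 FPKM in WT and at 35.5 and 41.6 FPKM in HFD. Its high-fat mean was 28.1 ± 7.72 FPKM (SD, n = 8), with every library above WT, and the log2 difference was 1.40 (adjusted p = 0.103). Serpinf1, a serpin that binds collagen, had a mean of 8.57 ± 1.69 FPKM in HSAPN (SD, n = 3) and 15.0 ± 2.11 in HFD (SD, n = 2), a log2 difference of -0.75 (adjusted p = 0.886). The 4 tested adhesion partners of integrins (Fermt3, Tln2, Lims2 and Zyx) had positive log2 differences of the high-fat groups from WT, also with median-ratio scaling. All 4 overlapped between the high-fat libraries and WT. WT replicate 1 was the lowest library for each of them, at 3.49, 0.694, 6.38 and 15.2 FPKM. Their median log2 difference was 0.48, against -0.06 over all tested genes, of which 44.6% were higher. None of the 4 was called with all libraries. Without WT replicate 3, the fit of the high-fat groups against WT called 240 of 1617 genes. Among these were 2 of the matrix proteins, 3 of the proteases and inhibitors and 1 adhesion partner. Of the 24 collagen-processing enzymes listed, none was in the table, so they were not analysed here.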

How the data were processed

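The deposited tables hold FPKM values per gene symbol for 12 aortic libraries. Per the submitters' processing notes, GRCm38, DESeq 1.8.3 and featureCounts 1.5.0-p3 were used, with no role stated. How the table's genes were selected is not stated. TPM scaling could not be told apart from FPKM. With GENCODE M21 exonic lengths, 96.1% to 97.3% of low values per library were whole reads (within 0.1), including all 102 low values of the 41 genes. Rows of duplicate symbols (2) were dropped. The counting's treatment of strand is unknown, and 10 of the 41 genes share exonic bases with a gene on the other strand.

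Group means were fitted with limma 3.58.1 (trend, R 4.3.3, 7 residual degrees of freedom) on log2(FPKM + 1) over 1659 genes, with Benjamini-Hochberg adjustment at 0.05. The code of the fit was tested on simulated data with changes placed only in genes of higher level. That does not measure its power for the low genes of the set. Named are the 3 most abundant genes of each role and, per comparison, up to 5 non-overlapping genes in each direction, and from each list up to 2. Members and lists were chosen with earlier results of these data known. Alternatives varied the filter, pseudocount, scaling, fit, libraries and test.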

Additional observations from a re-analysis of the deposited data

How the results depend on the processing

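No gene of the set passed the threshold in 94 of 95 repeats over 19 alternatives. The exception was the high-fat groups against WT without WT replicate 3, where 2 of the 20 then tested did, Fbln5 and Mmp19. Leaving out 1 library thus gave 0 to 2 there. That fit, of 1617 genes, also had the most calls over all genes. Of the 105 differences of single genes, 54 turned sign under at least 1 alternative. The 11 chosen for groups without overlap could hardly turn by that choice, and none of them passed the threshold. The median of the set moved by less than the spread within groups (0.609 on the log2 scale) in all 95 repeats. That spread is larger than every median of the set in the main fit, so this does not show that signs held. Without HFD replicate 1 the median of HAPN against HFD went from -0.17 to 0.31.

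Counts over all genes were small and unstable. From 0, 3, 2, 0 and 1 genes in HFD against WT, HAPN against HFD, HSAPN against HAPN, HSAPN against HFD and the high-fat groups against WT, they went to 2, 5, 1, 2 and 3 with no filter. A filter of at least 6 libraries gave 0 for HAPN against HFD and 0 for the high-fat groups, and a pseudocount of 0.1 gave 0 for the latter. Median-ratio scaling gave 5 for HAPN against HFD and 0 for the high-fat groups. Fitting the compared groups alone gave 0 for HAPN against HFD, 0 for HSAPN against HAPN, 1 for HSAPN against HFD and 5 for the high-fat groups. Counting the identical libraries as 2 gave 4 for HFD against WT, 9 for HAPN against HFD, 1 for HSAPN against HFD and 3 for the high-fat groups. The limma-voom test, chosen after seeing the data, gave 0 for HAPN against HFD and 1 for HSAPN against HAPN.

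Leaving out 1 library gave 0 to 27 genes for HFD against WT, 0 to 6 for HAPN against HFD, 0 to 3 for HSAPN against HAPN, 0 to 3 for HSAPN against HFD and 0 to 240 for the high-fat groups against WT. The highest counts were without WT replicate 3 (27, 6 and 240) and without HFD replicate 3 (17 for HFD against WT and 3 for HSAPN against HFD). The lone HFD library was then assumed to vary like the other groups. The cause of these moves was not tested.

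Libraries with the same replicate number did not deviate together, with correlations from -0.59 to 0.50 over 15 pairs. Both ends of this range came from pairs with an HFD library. The deviations of the 2 HFD libraries are exact opposites by construction, and 1 of them was deposited under 2 numbers. Those pairs therefore cannot show pairing. The same-numbered pairs without HFD ran from -0.53 to 0.33, and the numbers were not taken to pair the samples. With the replicate number as a block, HAPN against HFD had 0 genes, HSAPN against HAPN 3 and the high-fat groups 1, and no gene of the set was called. Mmp12 had 18 alternatives, since the stricter filter left it out. The 20 genes under the filter had 3 to 295 reads in their highest library, which limits the precision of their values.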
